A study of Saccharomyces cerevisiae with 12 samples.

Results

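The 8 Saccharomyces cerevisiae genes described here encode aldehyde dehydrogenases, enzymes that link acetate and acetyl-CoA, or a carrier of acetate in the plasma membrane. They are ALD2, ALD3, ALD4, ALD5 and ALD6, which encode aldehyde dehydrogenases, ACS2, ACH1 and ADY2. They were chosen by name, each had 1 probe set of its own on the array, and they are 8 of 5449 S. cerevisiae genes measured. All 8 exceeded background on all 12 arrays and were among the 5352 genes tested. The background was set per array at the 90th percentile of its probe sets for S. pombe, the fission yeast, and lay between 18.7 and 19.6 intensity units.

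In yeast, pyruvate decarboxylase splits pyruvate into carbon dioxide and acetaldehyde, most of which is reduced to ethanol. The remainder is oxidised to acetate by aldehyde dehydrogenases in the cytosol and in mitochondria, and acetyl-CoA synthetase activates acetate to acetyl-CoA. This route bypasses the mitochondrial pyruvate dehydrogenase complex and supplies the acetyl-CoA that the cytosol and nucleus need for lipids and for protein acetylation, and its cytosolic dehydrogenase step is a source of NADPH. Several of its genes are kept low while glucose is plentiful.

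Total RNA came from cells grown in YPX medium, which held 4% xylose. Cultures began at an OD660 of 0.1 and were collected after 25 h at 35 °C and 200 rpm. Each one-colour Affymetrix array received biotin-labelled cRNA made from 100 ng of that RNA. A parental strain was measured on 2 arrays, an evolved strain on 2 arrays, both labelled as biological replicates, and homozygotes from the evolved strain on 8 arrays, 1 for each of 8 strains. The genotypes of the strains, including any genes added for xylose use, are not given in the labels, and an effect of a homozygote strain and of its single culture cannot be told apart.

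The arrays were close in scale, and their median S. cerevisiae gene lay between 487 and 519 intensity units. The parental arrays differed from each other by a median of 0.22 on the log2 scale over all tested genes, and the evolved arrays by 0.06. That the evolved arrays came from separate cultures rests on their labels alone, so their spread, and the array weights that use it, may reflect less than the variation between cultures. The mean log2 signal of the ribosomal RNA probe sets was 12.03 ± 0.02 for the parental strain (SD, n = 2), 11.62 ± 0.04 for the evolved strain (n = 2) and 11.68 ± 0.12 for the homozygotes (n = 8). Its part in the results below was not tested. Of 14 markers of haploid cells, 12 were tested, and 2 rose and 1 fell in homozygotes against parental arrays. Of all tested genes 13.2% rose and 18.0% fell there. The summed signal of the 14 markers was 960.3 to 1052 in parental arrays, 960.0 to 1026 in evolved arrays and 893 to 1077 in homozygotes. In such bulk samples fewer cells of a type and less RNA per cell cannot be told apart.

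Intensities were compared on the log2 scale with limma, fitted to all 12 arrays with 1 mean per group, and p-values were adjusted with Benjamini-Hochberg over the 5352 genes. A gene was called at an adjusted p under 0.05. A log2 change is given ± its SE. Signals of different genes come from different probes, so their levels were not set against each other. The comparison with the parental strain bears on the purpose the submitters state, which is to find responses to xylose that go with its better use. All 12 arrays came from xylose medium, so a difference between strains is not by itself a response to xylose. Both comparisons with the parental strain share its 2 arrays.

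In homozygotes against parental arrays ALD3 fell, and ALD5, ALD4 and ACS2 rose. ALD2, ALD6, ACH1 and ADY2 did not pass the threshold. The share of 4 in 8 genes stands beside 31.2% of all tested genes called, with 13.2% higher and 18.0% lower. The median log2 change of the 8 genes was 0.22, against -0.04 over all tested genes. The homozygote and parental arrays did not overlap for 3 of the 8 genes, ALD3, ALD4 and ALD5, and for 31.2% of all tested genes. The 3 rises rested on parental array 1. Their sizes without it are given gene by gene below, since such a fit leaves 1 parental array. With array weights, which let each group have its own spread, none of the 4 calls was kept.

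**Figure D1:**
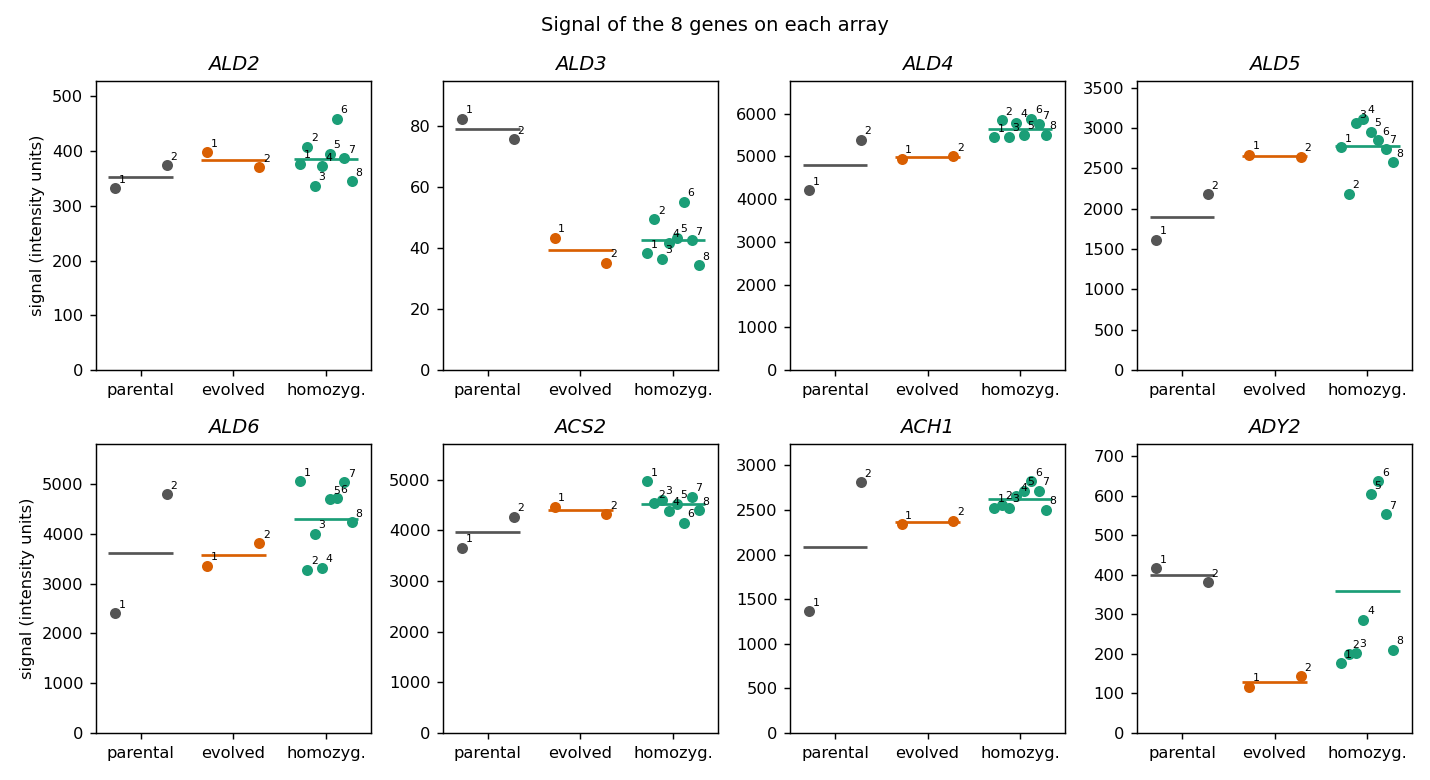
Signal in intensity units (linear axes from 0) of each of the 8 genes on each array, with the array's replicate or strain number beside its point and a line at the group mean. ALD3 is lower on every evolved and homozygote array than on both parental arrays, the parental points of ALD6 and ACH1 lie far apart, and homozygotes 5, 6 and 7 stand above the other 5 for ADY2.

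ALD2 and ALD3 encode cytosolic aldehyde dehydrogenases that use NAD+ and serve in making beta-alanine, a precursor of coenzyme A, from polyamines. The genes lie side by side on chromosome XIII and are close relatives. Neither probe set carries the array's mark for sequences shared with other genes, and the extent to which each detects the other's transcript was not tested.

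The ALD3 signal was 82.5 and 75.8 in the parental arrays and 43.5 and 35.3 in the evolved arrays. In the homozygotes it had a lowest value of 34.5, a median of 42.3 and a highest of 55.2. Every evolved and homozygote array was thus below both parental arrays, while evolved and homozygote arrays overlapped. The log2 change was -0.90 ± 0.16 in homozygotes against parental arrays (limma adjusted p = 0.0011) and -1.01 ± 0.20 in evolved against parental arrays (limma adjusted p = 0.0069). These correspond to signals 1.87-fold and 2.02-fold lower. The evolved and homozygote signals were not far above the background of 18.7 to 19.6. A constant added to all signals, such as a pseudocount of 16, makes such fold sizes smaller. Without parental array 1 or 2 the change in homozygotes was -0.84 or -0.96, called both times. In the evolved arrays it was -0.95 or -1.07, also called. The call in the evolved arrays was lost without evolved array 2 (-0.86, limma adjusted p = 0.093) and when only the parental and evolved arrays were fitted (limma adjusted p = 0.079). With array weights, which let each group have its own spread, both calls were lost, with limma adjusted p = 0.092 for homozygotes and 0.084 for evolved arrays.

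The ALD2 signal was 332 and 374 in the parental arrays and 397 and 370 in the evolved arrays, and in homozygotes its lowest, median and highest values were 336, 381 and 459. All 3 groups overlapped. The log2 change in homozygotes against parental arrays was 0.12 ± 0.11 (limma adjusted p = 0.41), with a 95% confidence interval of -0.11 to 0.34.

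The log2 difference ALD3 minus ALD2 within an array does not change when all signals of that array are multiplied by the same factor. It can change with an added offset or with a scaling that varies with signal level. Its mean differed from that of the parental arrays by -1.02 in homozygotes and by -1.13 in evolved arrays. Both parental arrays lay above all others, and evolved and homozygote arrays overlapped. This describes values already given for the single genes and was not used as a further test. Among the homozygotes alone the 2 genes varied together, with r = 0.95 over 8 arrays as a description. Over all 12 arrays r was 0.06.

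ALD4 encodes the main mitochondrial aldehyde dehydrogenase, which can use NAD+ or NADP+ and is activated by potassium. Its signal was 4209 and 5385 in the parental arrays and 4949 and 5009 in the evolved arrays. The 8 homozygotes lay close together, from 5453 through a median of 5629 to 5879. All were above both parental and both evolved arrays, but the lowest homozygote exceeded parental array 2 only slightly. The log2 change in homozygotes against parental arrays was 0.25 ± 0.07 (limma adjusted p = 0.014), a 1.19-fold rise. It was 0.07 without parental array 1 (limma adjusted p = 0.348) and 0.42 without parental array 2, and after quantile normalization it was 0.17 and just missed the threshold.

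ALD5 encodes a second mitochondrial aldehyde dehydrogenase, which prefers NADP+ and has been linked to the upkeep of the respiratory chain. Its signal was 1618 and 2183 in the parental arrays and 2671 and 2646 in the evolved arrays. In homozygotes the lowest, median and highest values were 2188, 2805 and 3114. Both evolved arrays and 7 of 8 homozygotes lay well above the parental arrays, while homozygote 2, at 2188, was level with parental array 2. The log2 change was 0.56 ± 0.12 in homozygotes against parental arrays (limma adjusted p = 0.0041), a 1.47-fold rise and the largest rise of the 8 genes in this comparison. Without parental array 1 it was 0.34 and not called (limma adjusted p = 0.085). In evolved against parental arrays it was 0.50 ± 0.15, just short of the threshold (limma adjusted p = 0.060). Without homozygote 2, which changes only the shared estimate of the spread, that adjusted p was 0.027 in limma.

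ALD6 encodes the cytosolic, NADP+-dependent enzyme that makes most of the acetate in cells growing on glucose and is a source of NADPH. Its signal was 2409 and 4797 in parental arrays 1 and 2, and 3354 and 3804 in the evolved arrays. The homozygotes ranged from 3279 through a median of 4459 to 5050, and homozygotes 2 and 4, at 3279 and 3319, lay below both evolved arrays. The parental arrays thus enclosed both evolved arrays and 6 of the 8 homozygotes. Their log2 difference of 0.99 was larger than that of 98.1% of tested genes. The change in homozygotes against parental arrays was 0.32 ± 0.21 (limma adjusted p = 0.27, 95% confidence interval -0.14 to 0.77). Leaving out parental array 1 turned it to -0.18, and leaving out parental array 2 raised it to 0.81, so its direction turned with the parental array kept.

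**Figure D2:**
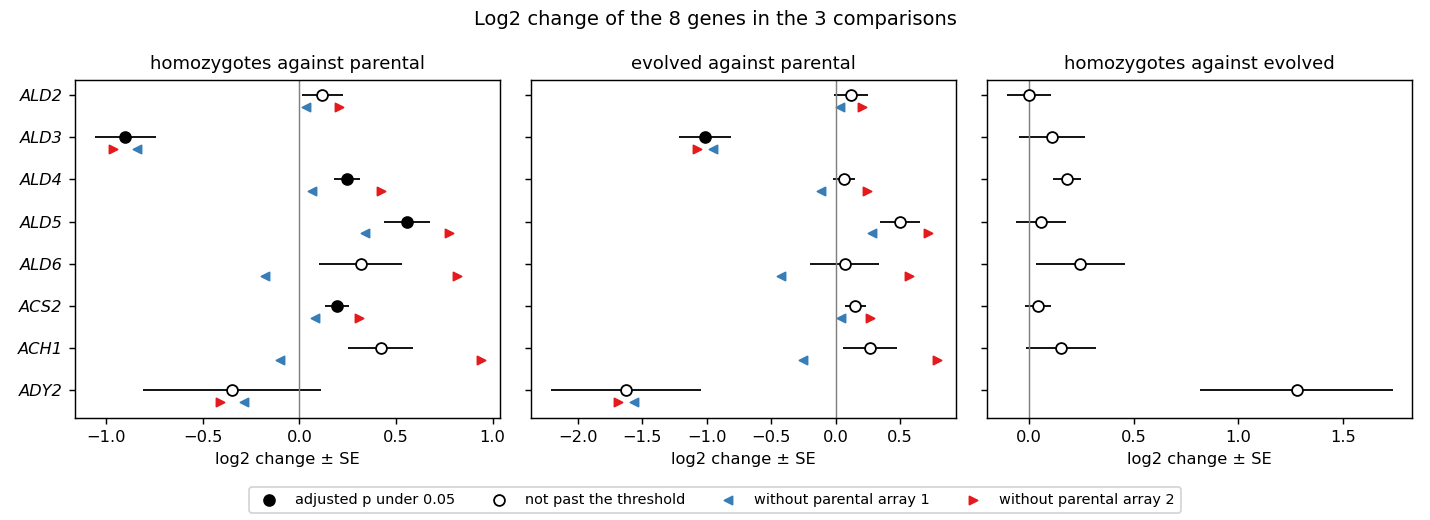
Log2 change with its SE (circles and bars) of each gene in the 3 comparisons, filled where the adjusted p was under 0.05, with the change without parental array 1 or 2 as triangles below. The triangles of ALD3 stay close to its circle, and those of ALD4, ALD5 and ACS2 lie on the same side of 0 in homozygotes at unequal size. Those of ALD6 and ACH1 lie on opposite sides of 0, as do those of ALD4 in evolved against parental arrays. The horizontal scales of the panels differ.

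ACS2 encodes the acetyl-CoA synthetase that yeast expresses on glucose, found in the cytosol and nucleus. Its signal was 3654 and 4274 in the parental arrays, 4471 and 4316 in the evolved arrays, and 4150, 4530 and 4967 as the lowest, median and highest of the homozygotes. Homozygote 6, the lowest, lay below parental array 2, and the other 7 lay above it. The log2 change in homozygotes against parental arrays was 0.19 ± 0.06 (limma adjusted p = 0.034), a 1.14-fold rise. It was 0.08 without parental array 1 (limma adjusted p = 0.435) and 0.13 after quantile normalization (limma adjusted p = 0.120), neither called. Without homozygote 3 or 7 it also missed the threshold, with limma adjusted p = 0.0503 and 0.0528.

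ACS1, the other acetyl-CoA synthetase gene, which is repressed by glucose, lies on chromosome I, where the median log2 change of 81 tested genes was -0.81. It fell by 0.37 ± 0.08 in homozygotes against parental arrays (limma adjusted p = 0.0051), with limma adjusted p = 0.055 without parental array 1. None of the 8 genes lies on that chromosome. The medians of the chromosomes that carry them, II, III, V, XII, XIII, XV and XVI, were between -0.07 and 0.02.

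ACH1 encodes a mitochondrial enzyme first described as an acetyl-CoA hydrolase and later as a transferase that moves coenzyme A from succinyl-CoA to acetate. Its signal was 1368 and 2810 in parental arrays 1 and 2, 2341 and 2381 in the evolved arrays, and 2504, 2606 and 2820 as the lowest, median and highest of the homozygotes. The evolved and homozygote arrays formed narrow ranges that did not overlap with each other, and all but homozygote 6 lay between the 2 parental values. The parental log2 difference of 1.04 was larger than that of 98.4% of tested genes, whereas the SD of 0.06 over the homozygotes was among the lowest 10.2%. The log2 change in homozygotes against parental arrays was 0.42 ± 0.17 (limma adjusted p = 0.072). It was -0.10 without parental array 1 (limma adjusted p = 0.330) and 0.94 without parental array 2 (limma adjusted p = 3.2e-06), so the direction for ACH1 turned with the parental array kept.

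ADY2, also known as ATO1, encodes an acetate transporter of the plasma membrane that is repressed by glucose and needed for growth on acetate. Its signal was 416 and 382 in the parental arrays and 117 and 143 in the evolved arrays. The homozygotes were at 176, 201, 203, 287, 605, 637, 554 and 211 in the order of strains 1 to 8. Both evolved arrays were below every parental and homozygote array. Homozygotes 1, 2, 3, 4 and 8 lay between the evolved and the parental arrays, and homozygotes 5, 6 and 7 lay above the parental arrays. The evolved arrays were at a signal 3.09-fold lower than the parental arrays (log2 change -1.63 ± 0.58), which did not pass the threshold (limma adjusted p = 0.10). That SE comes mostly from the spread of the homozygotes. When only the parental and evolved arrays were fitted, the adjusted p was 0.047 in limma, and without homozygotes 5 and 6 it was 0.035.

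In homozygotes against parental arrays the log2 change of ADY2 was -0.35 ± 0.46 (limma adjusted p = 0.59, 95% confidence interval -1.34 to 0.65), a mean over strains that lay on both sides of the parental arrays. In homozygotes against evolved arrays it was 1.28 ± 0.46, a signal 2.43-fold higher (limma adjusted p = 0.21). All 8 homozygotes exceeded both evolved arrays. With array weights per group this difference was called (limma adjusted p = 0.0073), and these weights rest on the close evolved duplicates.

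**Figure D3:**
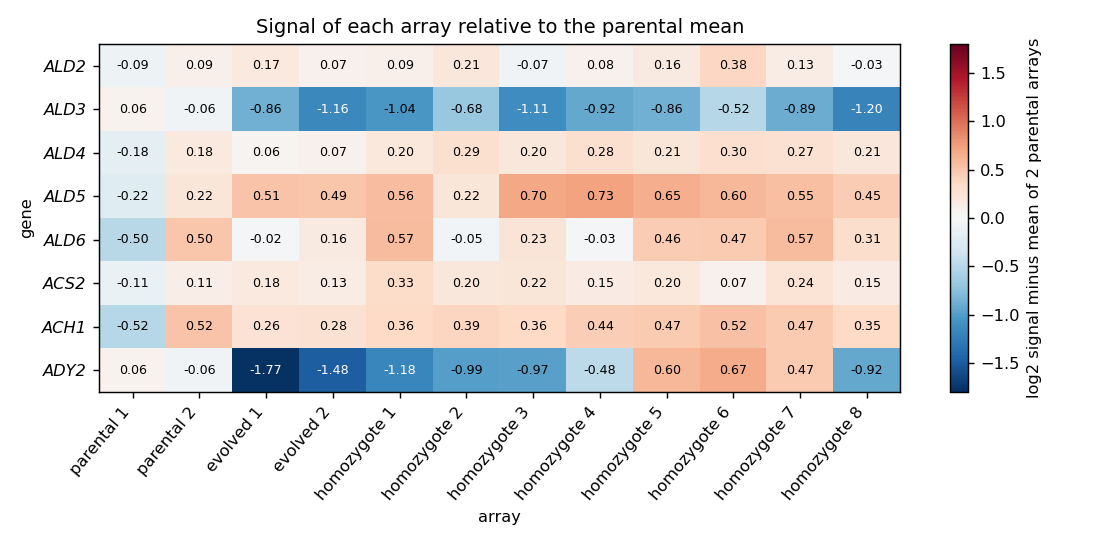
Log2 signal of each array minus the mean of the 2 parental arrays, for the 8 genes (rows) and 12 arrays (columns), with blue for lower and red for higher values. ALD3 is between 0.52 and 1.20 below the parental mean on all evolved and homozygote arrays, and ADY2 runs from -1.77 in evolved array 1 to 0.67 in homozygote 6.

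Among evolved against parental arrays ALD3 was the 1 gene of 8 called, and it was lower, beside 8.41% of all tested genes called, 3.20% higher and 5.21% lower. The groups did not overlap for 4 of the 8, ALD3, ALD5, ACS2 and ADY2, and for 51.8% of all tested genes. The median log2 change of the 8 genes was 0.10, against -0.01 over all tested genes. ALD2 changed by 0.12 ± 0.13, ALD4 by 0.06 ± 0.08, ALD6 by 0.07 ± 0.27, ACS2 by 0.15 ± 0.08 and ACH1 by 0.27 ± 0.21. At an unadjusted p under 0.05 in limma there were 3 of the 8, ALD3, ALD5 and ADY2, beside 23.9% of all tested genes. The changes of ALD4, ALD6 and ACH1 were -0.11, -0.43 and -0.25 without parental array 1, and none was called. Without parental array 2 the change was 0.24 for ALD4, 0.72 for ALD5, 0.27 for ACS2 and 0.79 for ACH1.

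No gene of the 8 was called between homozygotes and evolved arrays, and limma called 0 of all 5352 genes in this comparison. At an unadjusted p under 0.05 in limma there were 2 of 8, ALD4 and ADY2, beside 17.4% of all tested genes. ALD4 was higher in homozygotes by 0.18 ± 0.07 (limma adjusted p = 0.21). The groups did not overlap for ALD4, ACH1 and ADY2, 3 of 8, and for 22.0% of all tested genes. The intervals of the difference for the genes that changed least were -0.23 to 0.22 for ALD2, -0.10 to 0.18 for ACS2 and -0.20 to 0.32 for ALD5.

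The spread among the 8 homozygotes was tested against that of the parental and evolved duplicates with an F test. It called none of the 8 genes and 0 of all tested genes after adjustment. Before adjustment it picked out ADY2 alone of the 8, beside 2.24% of all tested genes. The SD of ADY2 over homozygotes was 0.80 on the log2 scale, the 5th largest of 5352 genes, and its signal ranged 3.62-fold. The median SD of all tested genes was 0.12. The widest step in the order of ADY2 levels, from homozygote 4 to homozygote 7, was 0.95, against differences of 0.12 between the parental and 0.29 between the evolved arrays. The next step in size, 0.44, lay between homozygotes 8 and 4.

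For the other 7 genes no step between homozygotes that follow each other in level exceeded the larger of the 2 duplicate differences. ALD4 and ACH1 had SDs of 0.05 and 0.06, and ACS2 of 0.08. The SDs were 0.14 for ALD2, 0.16 for ALD5, 0.22 for ALD3 and 0.25 for ALD6. For all of them but ALD3 the widest step did exceed the evolved duplicate difference, as for ALD5 with 0.23 against 0.013. Homozygote 6 was the highest strain for 5 of the 8 genes, ALD2, ALD3, ALD4, ACH1 and ADY2, and the lowest for ACS2. On the ribosomal RNA probe sets homozygotes 5 and 6 were at 11.90 and 11.83 and homozygote 7 at 11.58, against 11.57 to 11.68 in the other 5. Homozygotes 5 and 6, but not 7, were thus high for both ribosomal RNA and ADY2.

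**Figure D4:**
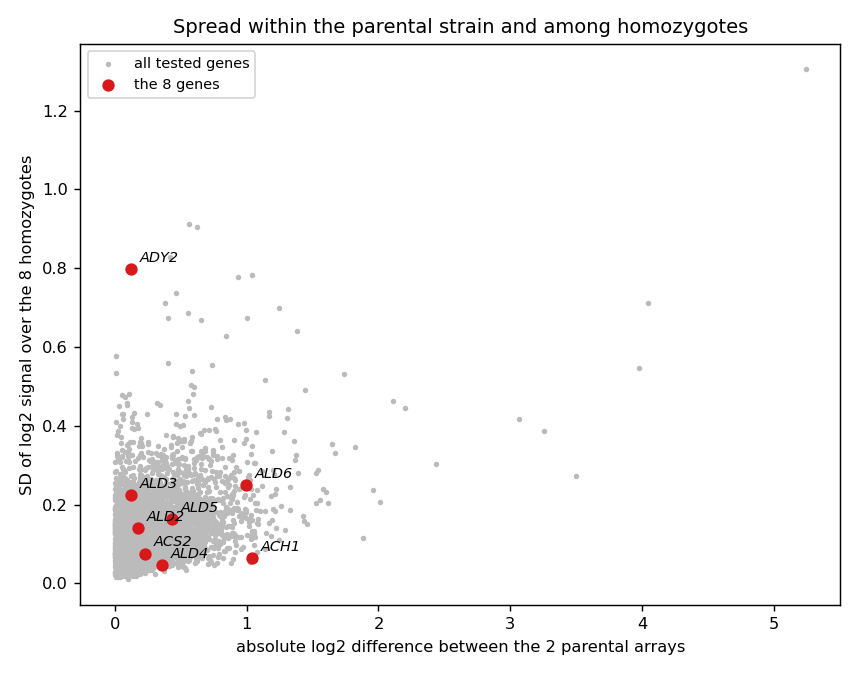
SD of the log2 signal over the 8 homozygotes (vertical) against the absolute log2 difference between the 2 parental arrays (horizontal), for all tested genes (grey) and the 8 genes (red). ADY2 has a high SD of 0.80 at a parental difference of 0.12, and ACH1 a low SD of 0.06 at a parental difference of 1.04.

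Over the 8 homozygotes ADY2 and ACH1 ran nearly parallel, with r = 0.95, although ADY2 ranged 3.62-fold and ACH1 1.13-fold. Over all 12 arrays their r was 0.07. ALD3 and ALD4 had r = 0.82 over the homozygotes and -0.42 over 12 arrays. ACS2 had negative r with 6 of the other 7 genes over the homozygotes, down to -0.57 with ALD4. These are descriptions over arrays that the genes share, and with 8 strains they carry no test.

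For each gene the 3 genes with the most similar log2 signal over the 12 arrays were found by Pearson's r. ADY2 was most like YGR067C (0.97), TMA10 (0.94) and SLZ1 (0.94). YGR067C had signals of 72.9 and 100.3 in parental arrays and 29.2 and 28.8 in evolved arrays. It reached 113, 152 and 91.1 in homozygotes 5, 6 and 7 and stayed between 41.2 and 51.0 in the other 5. The likeness in these 3 strains follows from choosing the gene by its correlation with ADY2.

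ALD3 was most like HXT5 (0.97), a hexose transporter gene expressed in slowly growing cells, NMA1 (0.95), of NAD synthesis, and PAD1 (0.95), of phenylacrylic acid decarboxylation. HXT5 had signals of 509 and 365 in the parental arrays and 149 and 160 in the evolved arrays, and it lay between 123 and 278 in homozygotes. Like ALD3 it was highest in parental array 1 and, among homozygotes, in homozygote 6. This likeness follows from choosing HXT5 by its correlation with ALD3.

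**Figure D5:**
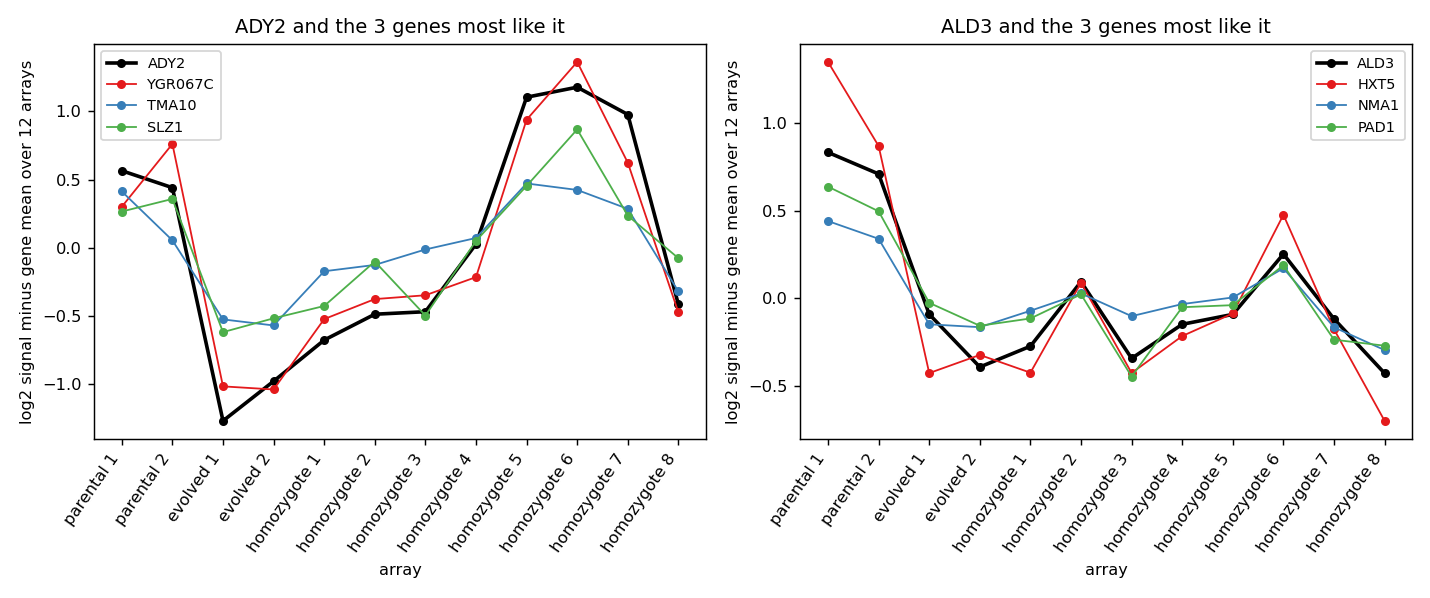
Log2 signal minus the gene's own mean over 12 arrays, for ADY2 (left) and ALD3 (right) in black and the 3 genes with the highest Pearson's r to each in colour; lines only join the points of a gene. On the left homozygotes 5, 6 and 7 rise above the other homozygotes, and on the right both parental arrays stand above the evolved and homozygote arrays.

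ACH1 was most like OPT2 (0.97), an oligopeptide transporter gene, CRH1 (0.97), of cell wall chitin linkage, and KGD1 (0.96), a subunit of the alpha-ketoglutarate dehydrogenase complex. OPT2 was at 202 and 746 in parental arrays 1 and 2, a difference that its choice by correlation with ACH1 favours. ALD6 was most like PYC1 (0.90), a pyruvate carboxylase gene. It was at 1702 and 3129 in the parental arrays, a difference likewise favoured by its choice. ALD5 was most like FAS1 (0.95), NRG1 (0.95) and LEU2 (0.94), ALD4 like QCR2 (0.93), SMT3 (0.91) and CAT2 (0.91), and ACS2 like MNN1, PLB1 and YMR099C (0.95 to 0.97). ALD2 was most like ECM38 (0.90), SUC2 (0.90) and PSD1 (0.87). Of the 8 genes, 6 had a lower signal in parental array 1 than in parental array 2, while 48.5% of all tested genes did.

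The genes on either side of the 8 on the chromosome did not share one direction. ALD3 fell between CEP3, at 0.08 ± 0.11, and ALD2. On one side of ALD5, VTC1 and the gene after it, TDA2, rose by 0.36 ± 0.09 (limma adjusted p = 0.012) and 0.27 ± 0.08 (limma adjusted p = 0.021). On its other side RPS24A and then YOS1 were at 0.14 ± 0.06 and 0.11 ± 0.08, neither called. The tested neighbours of ADY2 next to it, RVS161 and ADP1, were at 0.12 ± 0.09 and 0.04 ± 0.09, neither called.

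The genes around the 8 were counted from 7 lists, in homozygotes against parental arrays. Over all tested genes 13.2% rose and 18.0% fell in this comparison, and the counts of every list stand beside these shares. Acetaldehyde formation and reduction had 3 rises and 3 falls among 14 tested genes, with a median log2 change of -0.03, beside -0.04 over all tested genes. With array weights per group the calls left in the 7 lists were PDC6, YAT1, SPE3 and MIG2. PDC6, a minor pyruvate decarboxylase, rose by 1.53 ± 0.11 (limma adjusted p = 2.1e-06) and PDC5, the second pyruvate decarboxylase, by 0.46 ± 0.14. ADH2, the glucose-repressed alcohol dehydrogenase that oxidises ethanol to acetaldehyde, fell by 1.05 ± 0.30, and BDH2, which lies on chromosome I with its median of -0.81, fell by 0.85 ± 0.18. Without parental array 2 the change of PDC5 was 0.28 and that of ADH2 -0.37, neither called. PDC1, the main pyruvate decarboxylase, was at 0.00 ± 0.05. The other 2 calls were a rise of ADH1 by 0.42 ± 0.12 (limma adjusted p = 0.016) and a fall of SFA1 by 0.23 ± 0.07 (limma adjusted p = 0.017). The ADH1 signal was 5561 and 8899 in the parental arrays and 8175 to 9808 in homozygotes, so these groups overlapped.

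The list of mitochondrial pyruvate import and the pyruvate dehydrogenase complex had 4 rises and no fall among 12 tested genes, with a median of -0.01. They were the pyruvate carrier subunit gene MPC2 with 0.29 ± 0.07, and PDB1, PDA1 and LPD1 of the dehydrogenase complex with 0.21 ± 0.07, 0.17 ± 0.05 and 0.12 ± 0.04. Only MPC2 was called without parental array 1 and after quantile normalization, and it was not called without parental array 2.

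Of 10 tested genes of acetate transport and acid tolerance, ADY2 among them, 2 rose and 1 fell (median -0.17). PDR12, an exporter of weak organic acids, rose by 0.59 ± 0.16, with limma adjusted p = 0.070 without parental array 2. Another rise was that of YGP1, a stress-responsive glycoprotein gene, at 0.23 ± 0.08, which was 0.01 without parental array 1. ATO3, a relative of ADY2, fell by 0.35 ± 0.08, with limma adjusted p = 0.052 without parental array 2. ATO2, the other relative, was at 0.27 ± 0.16 and not called, and ADY2 itself was not called either.

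Among 12 tested genes of acetyl-CoA use and the carnitine shuttle, which carries acetyl groups into mitochondria, 3 rose and 2 fell (median -0.01). YAT1, an outer mitochondrial carnitine acetyltransferase, fell by 1.25 ± 0.10, and like ACS1 it lies on chromosome I. CAT2, the mitochondrial and peroxisomal carnitine acetyltransferase, rose by 0.47 ± 0.16, and CIT2, the peroxisomal citrate synthase, by 0.45 ± 0.12. Neither rise was called without parental array 1, at 0.02 and 0.35.

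The polyamine, beta-alanine and pantothenate genes next to ALD2 and ALD3 in metabolism had 1 rise and 1 fall among 13 (median -0.07). SPE3, spermidine synthase, fell by 0.48 ± 0.08 (limma adjusted p = 0.0012), a call kept without either parental array and with array weights. CAB1, pantothenate kinase, rose by 0.22 ± 0.08, and was at 0.07 without parental array 2. FMS1, the polyamine oxidase whose product the enzymes of ALD2 and ALD3 oxidise, was at 0.45 ± 0.17 (limma adjusted p = 0.057).

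Of 13 genes for other sources of NADPH, 2 rose and 1 fell (median 0.02). GND2, the minor 6-phosphogluconate dehydrogenase, rose by 0.41 ± 0.09 and ZWF1, glucose-6-phosphate dehydrogenase, by 0.28 ± 0.10. IDP2, the cytosolic isocitrate dehydrogenase, fell by 0.50 ± 0.11. Neither rise was called without parental array 1, at 0.28 and 0.09, and the fall of IDP2 was called without either parental array but not with array weights (limma adjusted p = 0.125).

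Of 15 genes for regulators of this metabolism, 3 rose and 5 fell (median -0.02). CAT8, an activator of genes for growth on non-fermentable carbon sources, rose by 0.61 ± 0.15. SIP4, an activator of the same kind, fell by 0.82 ± 0.21, the repressor gene MIG2 fell by 1.48 ± 0.24, and WAR1, the activator of PDR12, fell by 0.46 ± 0.11. The MIG2 signal was 26.8 to 56.3 in homozygotes, not far above the background of 18.7 to 19.6. Without parental array 2 the calls of CAT8, SIP4 and WAR1 were lost (limma adjusted p = 0.061, 0.058 and 0.052), while that of MIG2 was kept. ADR1, an activator of glucose-repressed genes, was at 0.19 ± 0.12 and not called. HAA1, an activator of the acetic acid response, fell by 0.31 ± 0.10, nearer to the threshold (limma adjusted p = 0.036) than CAT8, SIP4 and WAR1.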

How the data were processed

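The table the authors deposited holds linear intensity values for 10928 probe sets on 12 arrays. MAS5 is named, per the submitters' processing notes, without its role or version. How arrays were scaled to each other is not stated. The trimmed mean intensity (2% off each end) lay between 448.9 and 454.9. Intensities were log2 transformed (values under 1 would be set to 1) and not normalized again.

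Names came from the platform annotation, with symbols brought up to the R64 gene table: 5498 probe sets had 1 S. cerevisiae gene and 1746 had 1 S. pombe gene. Chromosomes were read from systematic names; no coordinates or sequences are given. A gene was tested if above background on at least 2 arrays. limma 3.58.1 in R 4.3.3 used a variance trend with mean signal, two-sided tests and a shared spread, to which the homozygotes contributed most arrays. For ACH1 and ALD4 that spread came mostly from the parental arrays. Their parental differences were 1.04 and 0.36, against homozygote SDs of 0.06 and 0.05. Code was tested on simulated data. The spread among homozygotes was tested by an F test against the squeezed variance of the duplicates. Precision is limited by the number of arrays.

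The members, lists, tests and alternatives were chosen with earlier results of these data known. Up to 4 called genes with the largest change were named per list, beside others named after their values were seen: ADH1, ADR1, ATO2, FMS1, HAA1, PDC1, SFA1 and the neighbours on the chromosome. Parental and evolved arrays share the numbers 1 and 2. Deviations of same-numbered arrays correlated at -0.05, so no strong shared deviation was seen and the arrays were not paired. Whether same-numbered arrays were handled together cannot be told from this value.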

Additional observations from a re-analysis of the deposited data

How the results depend on the processing

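Alternatives were 2 further normalizations, 3 treatments of dim signals, a pseudocount of 16, no variance trend, array weights, fits of 2 groups only, averaging of probe sets, and leaving out each array, or homozygotes 5 and 6 together; where a group was left with 1 array, that array was assumed to vary like the other groups. For homozygotes against parental arrays 4 of the 8 genes and 1669 of all genes were called. Quantile normalization lost the calls of ALD4 and ACS2, and array weights gave 0 of the 8 and 325 of all genes. Leaving out 1 array gave 1 to 6 of the 8 and 1394 to 1677 of all genes. For evolved against parental arrays (1 and 450), array weights gave 0 and 184, and the fit of these groups alone gave 46 of all genes, with ADY2 in place of ALD3 (limma adjusted p = 0.079). Without homozygotes 5 and 6 ADY2 was called, as given above. Leaving out 1 array gave 0 to 5 of the 8 and 118 to 863 of all genes. For homozygotes against evolved arrays (0 and 0), array weights gave 2 and 1549, and the fit of these groups alone 1 of all genes. Leaving out 1 array gave 0 of the 8 throughout and 0 to 29 of all genes, the most without homozygote 8. The spread test (0 and 0) called 6 and 3426 against the evolved duplicates alone, whose median difference was 0.06, and 0 and 0 when 1 homozygote was left out. The cause of these changes was not tested.

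Directions reversed for some values. Leaving out parental array 1 or 2 gave -0.18 or 0.81 for ALD6 and -0.10 or 0.94 for ACH1 in homozygotes against parental arrays, the positive values called. In evolved against parental arrays it gave -0.11 or 0.24 for ALD4, -0.43 or 0.57 for ALD6 and -0.25 or 0.79 for ACH1, where the positive values of ALD4 and ACH1 were called. ALD4 was at -0.00090 there after quantile normalization, and ALD6 at -0.02 without evolved array 2. In homozygotes against evolved arrays, where none of these was called, leaving out 1 array gave -0.053 to 0.047 for ALD2 and -0.041 to 0.26 for ALD3, and ALD2, at -0.003 with all arrays, was at 0.020 after median centring and 0.022 after quantile normalization. Of the values of single genes, 168 of 184, 177 of 192 and 174 of 184 in these 3 comparisons kept direction and side of the threshold, as did 114 of 120 for the spread. Many of these settings could not move a log2 change, so the counts do not measure robustness. Each of the 8 genes had 1 probe set and exceeded background on every array. Averaging probe sets, the filters and the floor at background thus left its values as they were. Leaving out an array of the group not compared did so too. With the replicate number as a block, evolved against parental arrays gave 1 of the 8 and 488 of all genes, and ALD3 stayed at -1.01 (limma adjusted p = 0.0071).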
